A study of Mus musculus with 32 samples.

Results

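Fatty acid oxidation in mitochondria and peroxisomes was followed through 34 genes, out of 57186 genes in the count table. They were chosen by symbol from a fixed list of enzymes, transporters and associated proteins, written with earlier results of these data known. The products of 20 of them work in mitochondria, those of 10 in peroxisomes, those of 3 in both (Crat, Eci2 and Ech1) and that of 1, Acot1, in the cytosol. 33 of the 34 had enough counts to be tested. The remaining one, Cpt1b, the muscle form of carnitine palmitoyltransferase, had 5 counts over all 32 libraries, spread over 2 of them, and is given by those counts only. In the mouse annotation GENCODE M21, 100% of the 50-base stretches in its last 500 bases also occur in Gm44502, which had 0 counts. Reads that match both genes may have been left out, so the low count of Cpt1b need not mean absence. The cells were 3T3-L1 adipocytes, a mouse preadipocyte line differentiated in culture with insulin, dexamethasone and IBMX. All 8 groups were treated for 24 h and held 4 libraries each, which the labels call biological replicates and describe no further. The groups were DMSO vehicle, SCO, CAP7 and the PPARγ agonist rosiglitazone (ROSI), each without and with TNF-alpha (TNF). SCO and CAP7 are not spelled out in the labels. An Artemisia scoparia extract appears in the title of the series. Doses are not stated in the labels. The model is 1 clonal cell line in culture.

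Mitochondria oxidise long-chain fatty acids after the carnitine shuttle has carried them across the inner membrane. The acyl chain is then shortened in repeated rounds of dehydrogenation, hydration, a further dehydrogenation and thiolysis, and the electrons of the first step pass through the electron transfer flavoprotein to the respiratory chain. Peroxisomes run a related spiral on very long and branched chains, which ATP-binding transporters bring in, and hand the shortened products on. Many of these genes are known targets of the PPAR nuclear receptors, which bind as dimers with RXR to a pair of short motifs with a spacer of 1 base, called DR1. White fat cells mainly store fat, and a higher level of oxidation genes is a known feature of brown and beige fat cells.

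Promoter sequences from RefSeq, build GRCm38.p6, were at hand for 28 of the 34 members (29 promoters of 300 bases, 250 before and 50 after the annotated start). One stretch is printed because the pair of genes on either side of it was called in the same direction with TNF and with each compound against vehicle below. Hadha and Hadhb, the 2 subunits of the mitochondrial trifunctional protein, are transcribed away from each other on chromosome 5. Their annotated starts lie at 30154980 and 30155253, with 272 bases between them. The 250 bases before the Hadhb start, plus strand, chr5:30155003-30155252, lie wholly within that gap. Their GC content is 58.8%, and the 17 CG pairs are in capitals.
Hadha and Hadhb gap: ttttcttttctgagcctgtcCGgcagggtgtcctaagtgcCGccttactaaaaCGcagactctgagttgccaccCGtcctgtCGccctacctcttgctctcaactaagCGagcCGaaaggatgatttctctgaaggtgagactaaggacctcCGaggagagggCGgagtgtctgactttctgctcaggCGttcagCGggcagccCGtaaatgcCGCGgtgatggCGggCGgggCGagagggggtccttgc

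A DR1 was searched on both strands as 2 copies of AGGTCA with 1 base between them and at most 2 mismatches. It was found in 3 of the 29 member promoters, or 10.3%, against 3.86% of all 32851 promoters in the RefSeq table. The 3 matches are shown because DR1 is the motif that PPARs are known to read. Each had 2 mismatches. Bases that match the motif are in capitals, and the spacer and the mismatches are in lower case, all read along the strand of the motif.
Slc25a20, chr9:108662142-108662154, plus strand: AGGTgAaAGGTCg
Echs1, chr7:140116492-140116504, minus strand: AGGTCAcgGGTCc
Etfa, chr9:55512308-55512320, plus strand: AGGgCAaAGGTaA
The Slc25a20 match lies after the annotated start of the gene, and the others lie before the starts of theirs. These 3 genes did not respond alike, as the values below show: ROSI without TNF raised Slc25a20 by 1.66, Echs1 by 0.28 and Etfa by 0.38 on the log2 scale. The motif TNAAGGTCA, which estrogen-related receptors are known to read, was in 0 of the 29 member promoters and in 1.28% of all promoters. A match is a string of letters in this window and says nothing of binding.

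Levels below are CPM values, read counts divided by the library total and put on a common scale, with library sizes scaled by TMM. Fold changes are log2 values from edgeR with their standard error (SE, n = 4 against 4), and a gene was called when its p, adjusted over all 14428 genes tested, was under 0.05. Levels are compared between groups and not between genes. The shallowest library held 11.31 M counts, the deepest 37.68 M and the median one 20.87 M. Adipocyte markers, 8 genes, summed to between 29580 and 31420 CPM with vehicle, 8772 to 10530 with TNF, and 28710 to 57230 with TNF and a compound. All 8 fell with TNF (median -2.23). Without TNF the sum with a compound was between 40180 and 69320 CPM, most of it Fabp4, a fatty acid carrier, whose mean was 15840 CPM with vehicle and 37300, 30830 and 45170 CPM with SCO, CAP7 and ROSI. Of the 8, 4, 6 and 6 rose and 1, 1 and 1 fell with these compounds, with medians of 0.19, 0.39 and 0.36. With TNF and SCO, CAP7 or ROSI, most of the sum was again Fabp4 (means 26630, 25980 and 42190 CPM). Against vehicle without TNF, 7, 7 and 6 of the 8 were still lower and 1, 1 and 1 higher (medians -1.26, -0.83 and -0.48). Against TNF and vehicle, 7, 8 and 7 were higher and 0 lower (medians 1.37, 1.72 and 1.93). Without TNF, the mean of Pparg was 571.8 CPM with vehicle and 404.7, 406.3 and 261.7 CPM with the compounds. Preadipocyte and fibroblast markers, 6 genes, summed to 868.3 to 1024 CPM with vehicle and 443.1 to 747.6 CPM in the other groups, most of it Dlk1 (mean 808.5 CPM with vehicle and 433.3 with TNF). Of the 5 tested, 1 rose and 2 fell with TNF (median -0.09), and Pdgfra, a receptor of fibroblast-like cells, was the one that rose, by 1.10 (SE 0.13). With SCO, CAP7 and ROSI without TNF 4, 5 and 5 of them fell. Macrophage and leukocyte markers, 6 genes, summed to 1.779 to 4.031 CPM with vehicle, 10.6 to 14.11 CPM with TNF and 5.047 to 8.189 CPM with TNF and a compound. Of these, Cd68, a lysosomal protein, rose with TNF from a mean of 0.942 to 10.5 CPM (3.54, SE 0.34), while Adgre1 was at 0 in every library and Ptprc reached at most 0.306 CPM. The 4 endothelial markers reached at most 1.794 CPM. In bulk RNA, fewer adipocytes and less RNA of these genes per adipocyte cannot be told apart. The part of the marker shifts in the results below was not tested.

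TNF lowered nearly the whole set. Of the 33 genes tested, 29 fell, 1 rose and 3 were not called, with a median log2 change of -0.94. Over all genes tested, 26.7% were called higher and 27.5% lower, and the median was -0.01. Among the mitochondrial genes 17 of 19 fell, with a median of -1.02, and among the peroxisomal ones 9 of 10 fell, with a median of -0.60. The fall was at least 2-fold for 10 of 19 mitochondrial and 4 of 10 peroxisomal genes, against 1460 of 14428 genes tested.

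The carnitine shuttle divided under TNF. Slc25a20, the carnitine-acylcarnitine translocase of the inner membrane, stood at 26.9, 21.8, 24.9 and 19.1 CPM in the vehicle libraries and at 11.4, 8.31, 9.02 and 8.91 CPM with TNF. The groups did not overlap, and the log2 change was -1.31 (SE 0.14, adjusted p = 1.575e-10). Cpt2, which reforms acyl-CoA on the matrix side, fell by 1.14. Cpt1a, the outer membrane transferase and the entry step to the shuttle, moved the other way. Its vehicle libraries held 16.3, 15.4, 14.9 and 15.1 CPM and its TNF libraries 21.7, 20.8, 21.4 and 19.9. Each TNF library was above each vehicle library, with a log2 change of 0.44 (SE 0.09, adjusted p = 5.629e-05). Cpt1a was the 1 member that rose with TNF. Crat, carnitine acetyltransferase, which buffers acetyl-CoA, fell from 145, 142, 138 and 139 CPM to 43.1, 50.4, 44.1 and 50.4 CPM, a change of -1.58 (SE 0.07, adjusted p = 1.015e-20).

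The 4 acyl-CoA dehydrogenases catalyse the first step of each round on chains of falling length, and they did not move together. Acadvl (very long chains), Acadm (medium chains) and Acads (short chains) fell by 1.04, 1.2 and 0.76. Acadm stood at 235, 239, 227 and 267 CPM with vehicle and 109, 100.5, 99.2 and 114 CPM with TNF. Acadl (long chains) was not called. It held 294, 303, 337 and 314 CPM with vehicle and 328, 346, 310 and 349 CPM with TNF, so that the groups overlapped (0.10, SE 0.07, adjusted p = 0.2473, 95% interval -0.04 to 0.24). That interval excludes a fall of the size seen in the other 3 dehydrogenases.

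The later steps fell as a block. Echs1 (short-chain enoyl-CoA hydratase), Hadh (hydroxyacyl-CoA dehydrogenase) and the thiolase Acaa2 fell by 1.02, 0.52 and 1.13. Of the trifunctional protein, Hadha fell by 0.73 and Hadhb by 1.26. Hadhb stood at 65.0, 57.6, 65.5 and 64.3 CPM with vehicle and at 26.0, 27.7, 23.5 and 28.6 CPM with TNF. The enzymes that reshape double bonds also fell, Decr1 (1.05), Ech1 (0.94), Eci1 (0.72), the peroxisomal Decr2 (0.51) and Eci2 (0.37). All 3 electron transfer genes fell: Etfb by 1.37 and Etfa by 0.65, the subunits of the flavoprotein, and Etfdh, the dehydrogenase that passes its electrons on, by 1.25. Pdk4, the kinase that holds back pyruvate dehydrogenase and so favours fat as fuel, went from 16.8, 17.2, 15 and 18.6 CPM to 11.5, 6.78, 9.81 and 6.80 CPM (-0.94, SE 0.16, adjusted p = 2.416e-06).

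Peroxisomal genes held both the steepest falls and a gene that was not called. Abcd2, a transporter that loads very long-chain acyl-CoA into peroxisomes, fell about 5-fold, from 121, 118, 114 and 109.8 CPM to 25.0, 24.5, 20.7 and 22.5 CPM (-2.33, SE 0.09, adjusted p = 3.171e-23). Abcd3, its relative, fell by 0.45, and Pex11a, which helps peroxisomes divide, by 0.47. In the spiral itself, Ehhadh, the bifunctional enzyme, fell by 2.49 (SE 0.39) from a low level, 0.842 to 1.91 CPM with vehicle and 0.153 to 0.330 CPM with TNF. Its counts ran from 3 to 49 per library. Hsd17b4, the other bifunctional enzyme, fell by 0.69, and Scp2, whose long form is a thiolase for branched chains, by 1.5. Counts are per gene and do not separate the forms of Scp2. The peroxisomal 3-ketoacyl-CoA thiolases parted. Acaa1b held 2.69, 0.842, 1.38 and 3.19 CPM with vehicle and 0.289, 0.408, 0.520 and 0.600 CPM with TNF (-2.13, SE 0.39, adjusted p = 1.615e-05). Acaa1a held 76.9, 89.5, 79.5 and 82.8 CPM with vehicle and 79.9, 90.9, 75.5 and 92.5 CPM with TNF. These ranges overlapped, and Acaa1a was not called (0.04, SE 0.07, adjusted p = 0.6471, 95% interval -0.11 to 0.20). Of the thioesterases, which release free fatty acid from CoA, Acot2 fell by 0.80 and Acot8 by 0.31. The call for Acot8 was lost with no filter on low counts (adjusted p = 0.0534). Acot1, at 0.504 to 1.32 CPM in these 8 libraries, was not called.

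**Figure D1:**
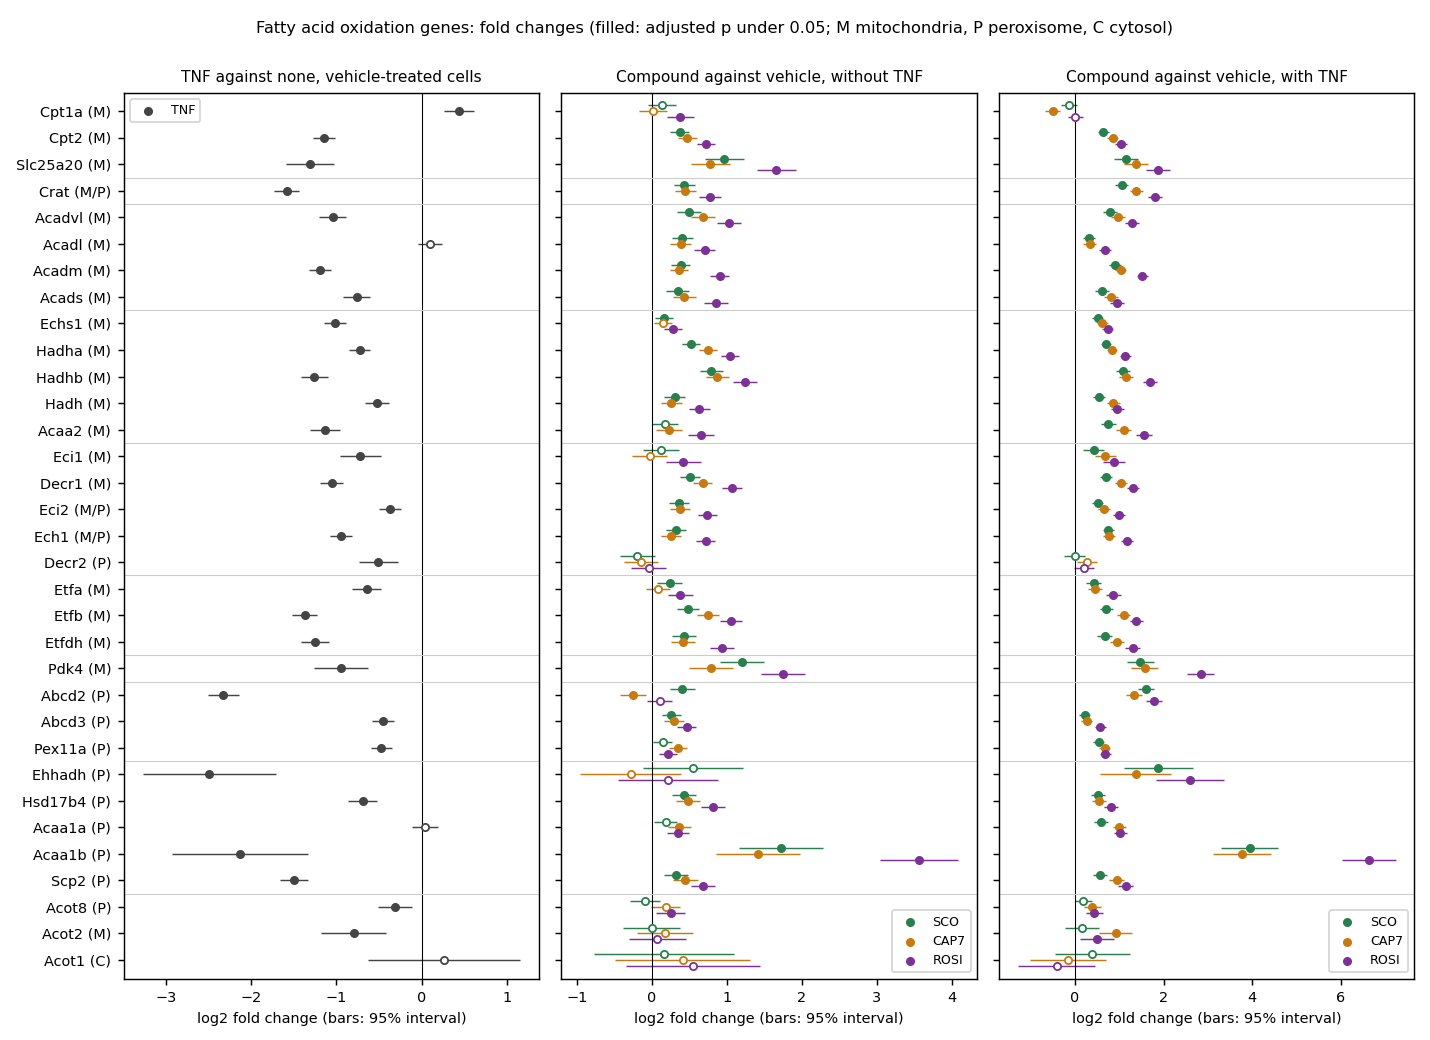
Log2 fold changes (horizontal axis, with 95% intervals) of the 33 members tested, 1 row per gene in the order of the pathway, for TNF in vehicle-treated cells and for SCO, CAP7 and ROSI against vehicle without and with TNF. Filled points passed the adjusted p threshold. The TNF panel has 29 filled points left of 0 and 1 right of it (Cpt1a), and Acaa1b lies farthest right in both compound panels, at 3.56 and 6.63 for ROSI.

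Without TNF, each compound raised most of the set. SCO raised 23 of 33 and lowered 0 (median 0.36), against 10.3% of all genes higher and 8.99% lower. CAP7 raised 23 and lowered 1 (median 0.38), against 15.2% and 15%. ROSI raised 28 and lowered 0 (median 0.71), against 18.4% and 19%. The median over all genes lay between -0.03 and -0.01 in the 3 comparisons. These comparisons share the 4 vehicle libraries. Mitochondrial genes were raised in 15, 14 and 18 of 19 cases by SCO, CAP7 and ROSI, and peroxisomal genes in 5, 6 and 7 of 10. The distance between the compartments was largest with ROSI, with medians of 0.86 and 0.30. With SCO they were 0.39 and 0.29, and with CAP7 0.41 and 0.32. No test compares the compartments.

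The carnitine shuttle rose at its inner membrane steps. Slc25a20 reached 40.8, 41.4, 49.8 and 50.2 CPM with SCO, 30.4, 45.7, 42.3 and 41.7 CPM with CAP7 and 76.3, 79.0, 74.4 and 65.4 CPM with ROSI, from 19.1 to 26.9 CPM with vehicle. No library with a compound was as low as any vehicle library. The changes were 0.97 (SE 0.13, adjusted p = 4.1e-07), 0.78 (SE 0.13) and 1.66 (SE 0.13, adjusted p = 1.9e-13). Cpt2 rose by 0.37, 0.48 and 0.72. Cpt1a was called with ROSI only (0.38, SE 0.09), where 3 libraries held 20.9, 21.0 and 21.5 CPM and the last one 17.1 CPM. Its changes with SCO and CAP7 were 0.13 and 0.01, with ranges that overlapped those of vehicle. Crat rose by 0.44, 0.45 and 0.78, and its 4 ROSI libraries lay close together at 238 to 243 CPM.

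In the mitochondrial spiral, all 4 acyl-CoA dehydrogenases rose with each compound, Acadl included. With ROSI, Acadvl, Acadm, Acads and Acadl rose by 1.03, 0.91, 0.86 and 0.71, and with SCO and CAP7 the 4 rose by 0.35 to 0.69. Acadm reached 449, 475, 460 and 429 CPM with ROSI, above the 227 to 267 CPM of vehicle and above the 304 to 329 CPM of SCO and CAP7. Hadha rose by 0.52 (SCO), 0.75 (CAP7) and 1.05 (ROSI), and Hadhb by 0.79, 0.87 and 1.24. The ROSI libraries of Hadhb held 150, 155, 141 and 152 CPM. Hadh rose by 0.31, 0.26 and 0.63. With CAP7 the calls of Hadh (0.15), Acaa2 (0.12) and Ech1 (0.15) were lost when libraries were scaled by their totals alone. Acaa2 was also lost without any 1 of 5 libraries (vehicle replicates 1, 2 and 4, CAP7 replicates 2 and 3), where its change was 0.19 to 0.24. Acaa2 rose by 0.66 with ROSI and was not called with SCO (0.18).

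Echs1 stood at 0.17 with SCO, 0.15 with CAP7 (not called) and 0.28 with ROSI. Its call with SCO was lost without any 1 of the 8 libraries compared (0.14 to 0.18), and under scaling by totals alone (0.10), RLE scaling (0.16) or no filter on low counts (0.16). Under scaling by totals alone ROSI gave 0.14 and no call. Among the enzymes for unsaturated chains, Decr1 rose by 0.51, 0.68 and 1.07, and Eci2 and Ech1 by 0.26 to 0.38 with SCO and CAP7 and by 0.74 and 0.72 with ROSI. Eci1 was called with ROSI only (0.42), where 1 ROSI library (88.8 CPM) lay below the highest vehicle library (89.5 CPM). Decr2 was called with none, at -0.19, -0.14 and -0.04. Etfb rose by 0.48, 0.75 and 1.06, from 370 to 398 CPM with vehicle to 830, 801, 838 and 737 CPM with ROSI. Etfdh rose by 0.43, 0.41 and 0.93. Etfa rose by 0.24 and 0.38 with SCO and ROSI and was not called with CAP7. The SCO call of Etfa was lost without any 1 of 6 libraries (the 4 vehicle libraries, SCO replicates 2 and 4; 0.17 to 0.25) and under scaling by totals alone (0.17). Pdk4 rose from 15 to 18.6 CPM with vehicle to 34.3, 39.9, 44.5 and 36.8 CPM with SCO (1.2, SE 0.15), to 35.5, 29.0, 24.2 and 27.8 CPM with CAP7 (0.79, SE 0.15) and to 59.1, 68.4, 49.8 and 49.0 CPM with ROSI (1.75, SE 0.15).

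The peroxisomal members were led by Acaa1b. It went from 0.842 to 3.19 CPM with vehicle to 24.0, 23.6, 21.2 and 27.3 CPM with ROSI, 11.8-fold (log2 3.56, SE 0.26, adjusted p = 3.2e-14). With SCO it held 5.05, 7.09, 7.47 and 7.33 CPM (1.72, SE 0.28) and with CAP7 4.31, 7.51, 5.24 and 4.66 CPM (1.41, SE 0.28). The lowest library with a compound was above the highest vehicle library. Acaa1a rose far less, by 0.37 with CAP7 and 0.35 with ROSI, and was not called with SCO (0.18). In the mouse annotation GENCODE M21, 38.8% of the 50-base stretches in the last 500 bases of Acaa1b also occur in Acaa1a, and 42.1% of those of Acaa1a occur in Acaa1b, so that reads of the 2 genes may have been split between them or left out. Hsd17b4 rose by 0.43, 0.48 and 0.82, Scp2 by 0.33, 0.45 and 0.68, and Abcd3 by 0.26, 0.30 and 0.47. Of the last 500 bases of Scp2, 73.2% of such stretches also occur in the pseudogene Scp2-ps2, which had 0 counts here. Etfb shares 48.8% with Gm45233, which had 4 counts over all libraries. These low partner counts do not show whether reads of Scp2 or Etfb were left out.

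Abcd2 was the member on which the compounds differed in direction. Without TNF it held 163, 159, 149 and 144 CPM with SCO, 93.3, 105, 97.8 and 94.3 CPM with CAP7, and 137, 122, 114 and 128 CPM with ROSI, against 109.8 to 121 CPM with vehicle. All SCO libraries lay above and all CAP7 libraries below the vehicle range, while ROSI overlapped it. The changes were 0.40 (SE 0.08, adjusted p = 3.5e-04) with SCO, -0.25 (SE 0.08, adjusted p = 0.019) with CAP7 and 0.11 (SE 0.08, adjusted p = 0.33) with ROSI. The CAP7 call was lost without CAP7 replicate 1 or 4 (-0.23 for both). Set directly against each other, SCO was above CAP7 by 0.65 (SE 0.08, adjusted p = 1.9e-06). Pex11a rose with CAP7 (0.35) and ROSI (0.21, 0.07 and not called under scaling by totals alone) and not with SCO (0.14). Ehhadh was not called with any compound without TNF (0.54, -0.28 and 0.21, each SE 0.33). Of the thioesterases, Acot8 was called with ROSI alone (0.25), and that call was lost without any 1 of 7 libraries (the vehicle replicates 1 to 3 and the 4 ROSI libraries; 0.23 to 0.26). Acot2 and Acot1 were called with no compound.

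**Figure D2:**
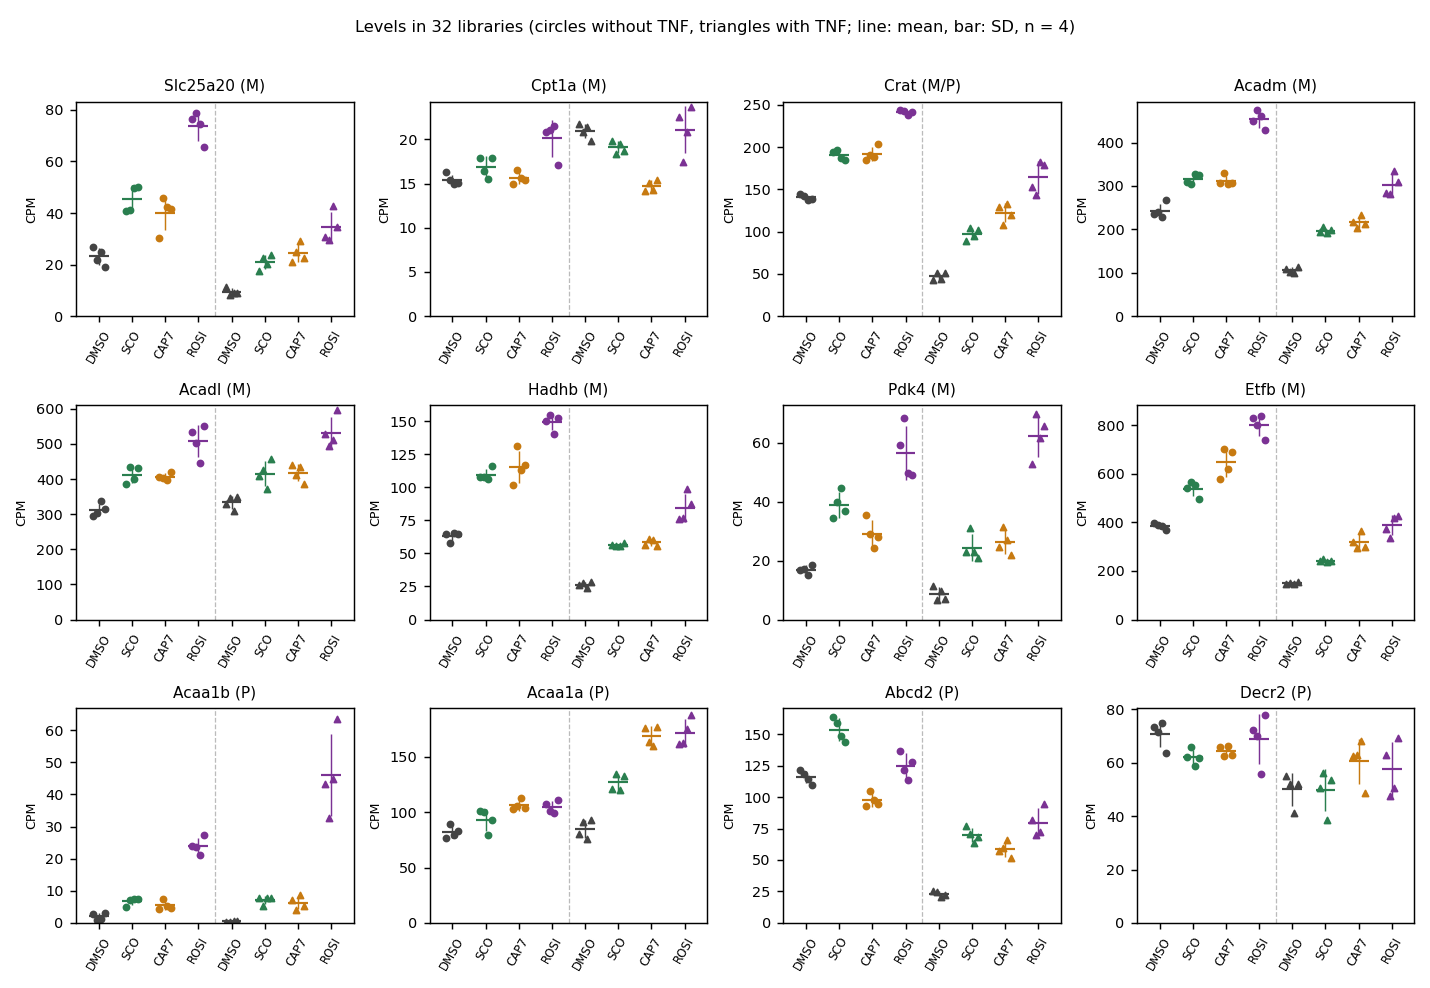
CPM (vertical axes, from 0) of 12 members in all 32 libraries, circles without and triangles with TNF, with the mean and SD of the 4 libraries of each group. In the Abcd2 panel SCO lies above and CAP7 below vehicle without TNF, and with TNF all 3 compounds lie above the 20.7 to 25.0 CPM of vehicle.

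With TNF present, the compounds raised more of the set and by more. SCO raised 28 of 33 and lowered 0 (median 0.61), against 13.2% of all genes higher and 8.09% lower. CAP7 raised 30 and lowered 1 (median 0.87), against 18% and 14.2%. ROSI raised 30 and lowered 0 (median 1.03), against 19.6% and 16.3%. The median over all genes was between -0.00105 and 0.0121. These comparisons share the 4 libraries with TNF and vehicle, which also enter the comparison of TNF with none, so a low value there counts in both. Peroxisomal genes were now called nearly as often as mitochondrial ones: 8, 9 and 9 of 10 against 17, 18 and 18 of 19. Their medians were 0.55, 0.81 and 0.92, against 0.67, 0.91 and 1.14 for mitochondrial genes. The 3 genes of both compartments rose with every compound.

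Slc25a20 rose from 8.31 to 11.4 CPM to 17.7, 22.5, 20.1 and 23.5 CPM with SCO, 20.9, 25.0, 29.0 and 22.5 CPM with CAP7 and 30.8, 29.6, 42.6 and 34.6 CPM with ROSI. The changes were 1.15, 1.37 and 1.87 (SE 0.14, 0.13 and 0.13). Crat rose by 1.05, 1.38 and 1.80, and Cpt2 by 0.64, 0.85 and 1.03. Cpt1a was the exception again. With CAP7 it fell to 14.2, 15.1, 14.2 and 15.5 CPM, below each of the TNF libraries (19.9 to 21.7 CPM), a change of -0.51 (SE 0.09, adjusted p = 1.1e-05). With SCO it held 18.4 to 19.8 CPM and with ROSI 17.5 to 23.6 CPM, and neither was called (-0.13 and 0.01).

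The acyl-CoA dehydrogenases rose with all 3 compounds, Acadm by 0.90, 1.03 and 1.52 and Acadl by 0.32, 0.33 and 0.68. Acadl is the dehydrogenase that TNF had not lowered, and its rise was of the same order as without TNF (0.41, 0.39 and 0.71). Hadha rose by 0.69, 0.83 and 1.14 and Hadhb by 1.09, 1.14 and 1.68. Hadhb held 55.4 to 57.5 CPM with SCO, 55.6 to 61.2 with CAP7 and 76.1, 76.4, 98.4 and 87.7 CPM with ROSI. Acaa2 rose by 0.75, 1.10 and 1.56, where without TNF it had been called with CAP7 and ROSI alone. Etfb rose by 0.70, 1.09 and 1.38, Etfdh by 0.67, 0.94 and 1.30 and Etfa by 0.42, 0.45 and 0.86. Pdk4 rose from 6.78 to 11.5 CPM to 52.8, 69.6, 61.4 and 65.7 CPM with ROSI, 7.13-fold (log2 2.83, SE 0.15, adjusted p = 2.2e-18), and by 1.47 and 1.57 with SCO and CAP7. Eci1 rose by 0.42, 0.68 and 0.88; its call with SCO was lost without SCO replicate 2 (0.34). Decr2 was not called with any of them (-0.01, 0.28 and 0.20). With CAP7, Decr2 lay near the threshold (adjusted p = 0.060).

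Acaa1b rose from 0.289 to 0.600 CPM to 43.2, 32.7, 44.8 and 63.6 CPM with ROSI, 98.9-fold (log2 6.63, SE 0.30, adjusted p = 1.4e-20). With SCO it held 7.84, 5.26, 7.63 and 7.75 CPM (3.94, SE 0.32) and with CAP7 7.20, 4.03, 8.85 and 5.23 CPM (3.77, SE 0.32). Its lowest library held 7 counts and its highest 1620. Acaa1a rose by 0.59, 1.00 and 1.02, from 75.5 to 92.5 CPM to 176, 163, 160 and 177 CPM with CAP7 and 161, 163, 175 and 188 CPM with ROSI. Abcd2, which had split the compounds without TNF, rose with each of them in its presence: to 76.8, 71.0, 63.6 and 68.4 CPM with SCO (1.60), 57.0, 59.9, 65.8 and 51.4 CPM with CAP7 (1.34) and 81.7, 69.5, 72.2 and 94.7 CPM with ROSI (1.78, each SE 0.09). Ehhadh rose by 1.88, 1.37 and 2.58 (SE 0.38 to 0.40), and the CAP7 call was lost with no filter on low counts (adjusted p = 0.0696). Hsd17b4 rose by 0.52, 0.54 and 0.81, Scp2 by 0.56, 0.94 and 1.14, Pex11a by 0.53, 0.67 and 0.68 and Abcd3 by 0.21, 0.26 and 0.57. With SCO, Abcd3 was lost under scaling by totals alone (0.14) and with no filter on low counts.

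Acot2 rose with CAP7 by 0.91 (SE 0.19, adjusted p = 1.8e-04). Its CAP7 libraries spread from 224 to 468 CPM (468, 286, 224 and 240) above 130 to 193 CPM with TNF alone. With ROSI it was called at 0.49, and the call was lost without any 1 of 6 libraries (TNF replicates 1, 3 and 4, TNF and ROSI replicates 1, 2 and 4; 0.38 to 0.49), with DESeq2 and under scaling by totals alone. Acot8 rose with CAP7 (0.39) and ROSI (0.44), and Acot1 was not called.

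**Figure D3:**
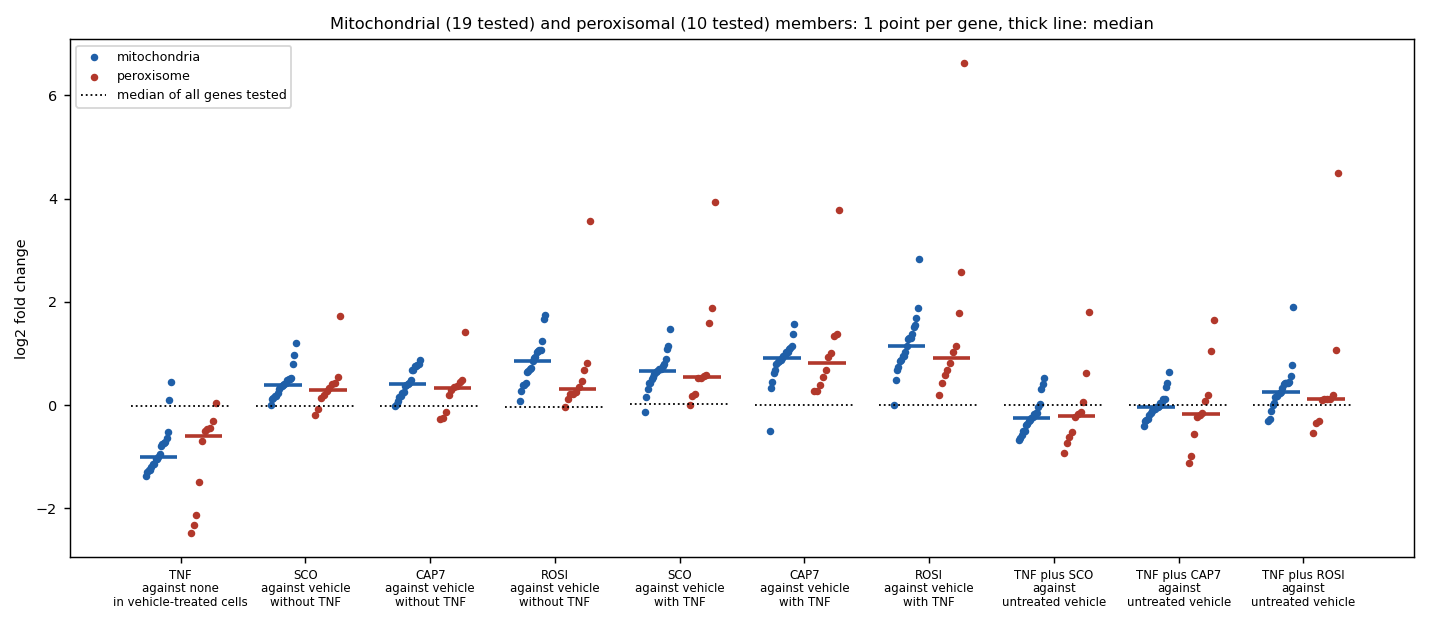
Log2 fold changes (vertical axis) of the 19 mitochondrial and 10 peroxisomal genes tested, 1 point per gene, in 10 comparisons, with the median of each set as a thick line and that of all 14428 genes as a dotted line. With TNF the peroxisomal genes run from -2.49 to 0.04 and the mitochondrial ones from -1.37 to 0.44; with ROSI and TNF the highest points are 6.63 and 2.83.

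The calls depended in part on how libraries were scaled. Under scaling by totals alone, with no TMM factors, the median of all genes moved by more than 0.1 in CAP7 without TNF (to -0.127), ROSI without TNF (to -0.171), CAP7 with TNF (to -0.103), ROSI with TNF (to -0.157) and ROSI with TNF against untreated vehicle (to -0.134). The share of all calls that were higher went from 53.4% to 35.3% for SCO, 50.3% to 28.8% for CAP7 and 49.2% to 27.8% for ROSI without TNF, and with TNF from 62% to 44.2%, 55.8% to 36.9% and 54.6% to 31.7%. The median of the members stayed above 0 in these 6 comparisons (0.27 to 0.88) and above that of all genes. Between compounds the higher share went from 50.2% to 72% (SCO against ROSI), 46.2% to 57% (CAP7 against ROSI) and 49.8% to 71.6% (SCO against CAP7) without TNF, and with TNF from 39.9% to 67.8%, 40.6% to 61.9% and 45.1% to 61%. Against untreated vehicle it went from 52.8% to 40.2% with TNF and CAP7 and from 54.1% to 36.7% with TNF and ROSI.

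In direct comparisons, ROSI was above both other compounds for most members. Without TNF, SCO was below ROSI for 22 members and above it for 1, Abcd2 (0.30), against 7.33% and 7.39% of all genes. CAP7 was below ROSI for 24 and above it for 0, against 6.27% and 5.39%. With TNF, SCO was below ROSI for 25 (8.64% of all genes) and above for 0 (5.74%), and CAP7 was below ROSI for 21 (5.09%) and above for 0 (3.48%). The widest gaps were those of Acaa1b, at -1.84 and -2.15 without TNF and -2.69 and -2.85 with TNF for SCO and CAP7 against ROSI. Pdk4 stood at -0.54 and -0.95 without TNF and -1.36 and -1.26 with TNF. Slc25a20 stood at -0.70 and -0.88 without TNF, and at -0.73 and -0.51 with TNF. The last of these, for CAP7 with TNF, was lost without TNF and ROSI replicate 3 (-0.38). The call of Abcd2 for SCO above ROSI was lost without SCO replicate 1 (0.26) or ROSI replicate 3 (0.25). Leaving out 1 library or another also lost Abcd3 and Acot8 for SCO, and Etfa and Scp2 for CAP7, without TNF. With TNF it lost Hsd17b4, Echs1 and Eci1 for SCO, and Hsd17b4, Ehhadh and Acadvl for CAP7. Decr2, Pex11a, Acot2 and Acot1 were called in none of these 4 comparisons. For Decr2 with CAP7 and TNF the 95% interval of the difference from ROSI was -0.15 to 0.31.

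SCO and CAP7 lay closer to each other than either did to ROSI. Without TNF, SCO was above CAP7 for 1 member, Abcd2, and below it for 3, Etfb (-0.27), Hadha (-0.23) and Pex11a (-0.20), against 3.01% and 3.04% of all genes. Etfb was lost without SCO replicate 4 or CAP7 replicate 2 or 4 (-0.235 to -0.222), Hadha without CAP7 replicate 4 (-0.20), and Pex11a without any 1 of 7 libraries (the 4 of SCO, CAP7 replicates 1 to 3; -0.22 to -0.17). With TNF, SCO was above CAP7 for 2, Cpt1a (0.38) and Abcd2 (0.26), and below it for 10, against 4.13% and 5.03%. The 10 were Acot2 (-0.76), Acaa1a (-0.41), Etfb (-0.39), Scp2 (-0.38), Acaa2 (-0.35), Decr1 (-0.34), Hadh (-0.33), Crat (-0.33), Etfdh (-0.27) and Cpt2 (-0.21). Those of Abcd2, Acot2, Acaa2, Etfdh and Cpt2 were lost without 1 library or another: Abcd2 with any 1 of 6 (SCO replicates 1, 2 and 4, CAP7 replicates 1, 2 and 4; 0.20 to 0.27), Acot2 with SCO replicate 3 or CAP7 replicate 1 (-0.62 and -0.48), Acaa2 with SCO replicate 3 (-0.27), Etfdh with any 1 of 5 (SCO replicates 3 and 4, CAP7 replicates 1 to 3; -0.28 to -0.23), and Cpt2 with SCO replicate 1 or 3 or CAP7 replicate 1 (-0.21 to -0.17).

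The effect of each compound with TNF was tested against its effect without TNF as an interaction. It was larger with TNF for 9 members with SCO, 22 with CAP7 and 18 with ROSI, and smaller for 0, 1 and 1. Over all genes, 3.51% had a larger and 1.13% a smaller effect with SCO, 10.3% and 5.92% with CAP7, and 10.1% and 4.51% with ROSI, where larger and smaller mean the sign of the interaction. The same TNF and vehicle libraries enter every interaction. Abcd2 had the lowest adjusted p of the members in each, at 1.19, 1.59 and 1.67 (SE 0.12, adjusted p = 4.64e-09, 1.3e-12 and 1.94e-13). Crat (0.62, 0.93 and 1.03), Acadm (0.51, 0.67 and 0.61), Acaa2 (0.57, 0.87 and 0.90), Ech1 (0.43, 0.51 and 0.46), Echs1 (0.34, 0.46 and 0.46), Pex11a (0.39, 0.32 and 0.46), Acaa1a (0.40, 0.63 and 0.67) and Acaa1b (2.21, 2.36 and 3.07) were called with all 3 compounds. With SCO, the call of Acaa1b was lost with limma-voom (2.09, adjusted p = 0.137) and that of Acaa1a without vehicle replicate 2, SCO replicate 3 or TNF replicate 3 (0.33 to 0.36). Cpt1a was the member with a smaller value, at -0.52 with CAP7 and -0.37 with ROSI. The ROSI value was lost without any 1 of 8 libraries (vehicle replicates 2 and 3, ROSI replicates 1 to 3, TNF replicate 1, TNF and ROSI replicates 2 and 3; -0.37 to -0.29). Acadl, Hadha, Hsd17b4, Abcd3 and Acadvl were called in no interaction, with values from -0.09 to 0.30.

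The last question was where the genes stood when TNF and a compound were given together, against vehicle without TNF. With SCO, 17 members were lower and 5 higher (median -0.22), against 22.3% and 25.2% of all genes. With CAP7, 11 were lower and 7 higher (median -0.07), against 19.2% and 21.4%. The count of 7 higher is near the share over all genes. With ROSI, 4 were lower and 18 higher (median 0.22), against 21.1% and 24.9%. Leaving out 1 library or another lost 6 of the CAP7 calls. They were Acadm (-0.16), Ech1 (-0.18), Crat (-0.20), Abcd3 (-0.19), Ehhadh (-1.12) and Pex11a (0.20), with values from the main fit. It lost 3 of the SCO calls, Eci1 (-0.30), Ech1 (-0.19) and Etfa (-0.22). The mitochondrial medians were -0.25, -0.04 and 0.25 and the peroxisomal ones -0.20, -0.17 and 0.12. Under scaling by totals alone the peroxisomal median with ROSI was -0.02, the mitochondrial one 0.11, and the ROSI calls of Crat, Acadvl, Decr1, Ech1, Etfa and Pex11a were lost (0.06 to 0.11).

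**Figure D4:**
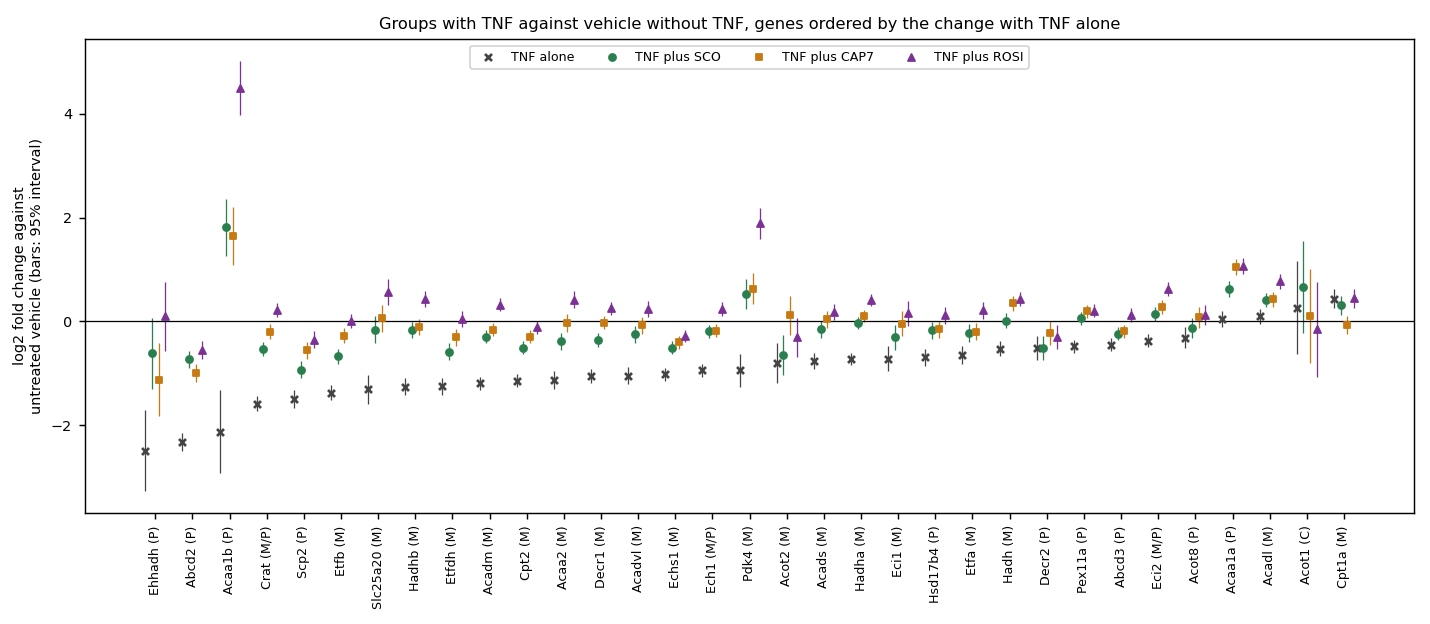
Log2 fold changes against vehicle without TNF (vertical axis, with 95% intervals) for TNF alone and for TNF with SCO, CAP7 or ROSI, 33 genes ordered by the change with TNF alone. From left to right the TNF points go from -2.49 (Ehhadh) to 0.44 (Cpt1a), and the ROSI triangles are above 0 for most genes and below it for Abcd2, Scp2, Acot2, Decr2, Echs1, Acot1 and Cpt2.

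Acaa1b, Acaa1a, Acadl and Pdk4 were above untreated vehicle with TNF and each compound. Acaa1b stood at 1.81, 1.65 and 4.50 (SE 0.27, 0.27 and 0.26) and Pdk4 at 0.53, 0.63 and 1.89 (SE 0.15). Acaa1a stood at 0.63, 1.04 and 1.06 and Acadl at 0.41, 0.42 and 0.77 (each SE 0.07), and neither was among the genes that TNF alone had lowered. For the trifunctional protein, Hadha and Hadhb were not called with SCO (-0.03 and -0.17) or CAP7 (0.11 and -0.12) and were higher with ROSI (0.41 and 0.43). Slc25a20 was not called with SCO or CAP7 (-0.16 and 0.06) and stood at 0.57 with ROSI. Cpt1a was higher with SCO and ROSI (0.31 and 0.45) and not called with CAP7 (-0.07). Eci2 and Hadh were higher with ROSI (0.63 and 0.43) and with CAP7 (0.28 and 0.35).

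Members that stayed below untreated vehicle were found in both compartments. Scp2 stood at -0.93, -0.56 and -0.36 (SE 0.08), Abcd2 at -0.73, -0.99 and -0.55 (SE 0.08) and Echs1 at -0.51, -0.40 and -0.28 (SE 0.06), called with all 3 compounds. Abcd2 held 109.8 to 121 CPM with vehicle and 69.5 to 94.7 CPM with TNF and ROSI, so that the groups did not overlap. Decr2 was lower with SCO (-0.52) and ROSI (-0.31), and the ROSI call was lost without vehicle replicate 3 or TNF and ROSI replicate 2 or 3 (-0.28 to -0.23). The ROSI calls of Crat (0.17 without TNF and ROSI replicate 3), Acadvl (0.18 without TNF and ROSI replicate 4) and Etfa (0.17 to 0.22 without vehicle replicate 1, 2 or 4 or TNF and ROSI replicate 4) were also lost without 1 library. Etfb and Etfdh were lower with SCO (-0.67 and -0.58) and CAP7 (-0.28 and -0.31) and not called with ROSI (0.01 and 0.05). With SCO, Cpt2 (-0.51), Crat (-0.53), Acaa2 (-0.39), Decr1 (-0.36) and Acadm (-0.30) were also lower, and Acot2 was lower with SCO alone (-0.64). Cpt2 (-0.29), Crat (-0.20) and Acadm (-0.16) were lower with CAP7 too, where the calls of Crat and Acadm were lost without 1 library or another.

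Neighbouring genes of the pathway, from lists written with earlier results of these data known, gave the following counts. Over all genes tested, 26.7% were higher and 27.5% lower with TNF, and 10.3%, 15.2% and 18.4% were higher and 8.99%, 15% and 19% lower with SCO, CAP7 and ROSI without TNF. Of 13 other enzymes of peroxisomal oxidation, 13 fell with TNF, and 5, 3 and 6 rose and 0, 2 and 3 fell with SCO, CAP7 and ROSI without TNF. The median changes were -0.94 with TNF and 0.06, 0.10 and 0.14 with the compounds. Cat, the catalase that breaks down hydrogen peroxide made in peroxisomes, fell by 1.64 with TNF (SE 0.07) and rose by 0.71 with ROSI (SE 0.07). Of 17 peroxins and membrane proteins, 16 fell with TNF and 9, 9 and 10 rose and 1, 1 and 1 fell with the compounds. Pex16 and Pex19, which place membrane proteins in peroxisomes, rose by 1.74 (SE 0.10) and 1.09 (SE 0.06) with ROSI. Pxmp2, a channel of the peroxisomal membrane, fell by 3.09 (SE 0.13) with TNF and by 0.57 with ROSI.

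Of 11 other mitochondrial acyl-CoA enzymes, 9 fell and 1 rose with TNF (median -0.49), and 0, 1 and 3 rose and 1, 3 and 2 fell with SCO, CAP7 and ROSI without TNF (medians 0.02, -0.10 and 0.01). These counts with the compounds are near the shares over all genes. Ivd, isovaleryl-CoA dehydrogenase of leucine breakdown, fell by 1.61 with TNF (SE 0.08) and by 0.49 with ROSI (SE 0.08). Of 10 genes of fatty acid activation and carnitine supply, 5 fell and 2 rose with TNF, and 6, 6 and 6 rose and 2, 2 and 1 fell with the compounds. Acsl1, the main long-chain acyl-CoA synthetase of adipocytes, fell by 1.31 (SE 0.08) with TNF and rose by 1.68 (SE 0.08) with ROSI, while Acsl5 rose by 1.97 (SE 0.08) with TNF and fell by 0.93 (SE 0.08) with ROSI. Both ketone body enzymes tested fell with TNF, and 0, 0 and 1 rose and 1, 1 and 1 fell with the compounds.

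Of 11 transcriptional regulators of fat oxidation, 8 fell and 1 rose with TNF (median -1.0). Without TNF, 6, 7 and 7 rose and 2, 2 and 3 fell with SCO, CAP7 and ROSI, and with TNF 8, 10 and 9 rose and 0 fell with any, against 13.2%, 18% and 19.6% of all genes higher and 8.09%, 14.2% and 16.3% lower. Ppargc1b, a coactivator of mitochondrial genes, fell by 2.00 (SE 0.12) with TNF and rose by 1.14 (SE 0.11) with ROSI. Esrra, an estrogen-related receptor, fell by 1.53 (SE 0.08) and rose by 0.84 (SE 0.08). Nrip1, a corepressor and so not an activator, fell by 1.815 (SE 0.10) with TNF and was not called with ROSI (0.09). Pparg, the receptor that ROSI binds, fell by 1.42 (SE 0.08) with TNF and by 1.13 (SE 0.08) with ROSI.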

How the data were processed

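Gene counts from 32 QuantSeq 3' RNA libraries, deposited by the authors as raw whole-number counts per Ensembl gene, were used as they stand. Per the submitters' processing notes, cutadapt 4.9, STAR 2.7.11b, HTSeq 2.0.5, R 4.4.1, limma 3.60.6 and build GRCm39 were used. No source says which step each tool served or how reads with several matches were counted. Symbols came from GENCODE M21 on GRCm38. Counts were scaled by TMM, filtered by group with filterByExpr and fitted in edgeR 4.0.16 (R 4.3.3) by the quasi-likelihood F test, with 1 mean per group, 24 residual degrees of freedom and Benjamini-Hochberg adjustment over 14428 genes. All 8 groups shared the estimate of spread, for 19 comparisons. Any member could be named, and up to 4 genes of each other list, those with the lowest adjusted p for TNF or ROSI. The members and lists were chosen with earlier results of these data known. The fit was run on simulated data for ROSI against vehicle without TNF, 14428 genes with 50 changed at each size. True changes of 1.25-fold were found in 20% of cases, 1.5-fold in 74%, 2-fold in 84% and 4-fold in 98%. Of 144 calls, 6 were false. In the real data this comparison called 5399 genes. More calls loosen the p that passes the adjustment, so these rates do not give the power in the real data. P-values measure the spread between libraries. Alternatives were DESeq2 1.42.0, limma-voom (limma 3.58.1), other scalings and filters, a replicate block, only the groups compared, and leaving out each library.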

Additional observations from a re-analysis of the deposited data

Results flagged for a closer look

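In 14 of 266 groups of 4 libraries, 1 library stood apart from the other 3 by Dixon's test, which chance gives in about 1 group of 20. Among the carnitine genes, ROSI replicate 4 was low for Cpt1a (17.07 CPM, others 20.88 to 21.48). Cpt2 was low in replicate 1 of TNF and SCO (53.52 CPM, others 59.03 to 60.08) and high in replicate 1 of TNF and CAP7 (72.25 CPM, others 65.4 to 65.68). Cpt1b had its few counts in vehicle replicate 4 (0.3359 CPM) and SCO replicate 4 (0.05815 CPM), with 0 in the others. With the other 3 libraries at 0, any count is flagged, so the Cpt1b flags say nothing of its spread. Of the dehydrogenases, CAP7 replicate 1 was low for Acadvl (279.4 CPM, others 345.3 to 357.5). CAP7 replicate 2 was high for Acadm (328.9 CPM, others 303.6 to 306.6) and for Acads (425.6 CPM, others 358.2 to 365.5). Vehicle replicate 4 was high for Acads (295.2 CPM, others 272.8 to 275.4), and vehicle replicate 2 was low for Hadhb (57.55 CPM, others 64.33 to 65.54). Acaa1b was low in SCO replicate 1 (5.052 CPM, others 7.093 to 7.469) and in replicate 2 of TNF and SCO (5.255 CPM, others 7.63 to 7.84). Acot8 was high in replicate 4 of TNF and SCO (16.09 CPM, others 14.37 to 14.5), and Acot1 in TNF replicate 1 (1.32 CPM, others 0.6589 to 0.7135).

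The effect of a compound differed with and without TNF in 51 interactions by edgeR's quasi-likelihood test, adjusted over all genes tested. Values are the log2 effect with TNF minus that without. With SCO, the 9 were Crat 0.616, Acadm 0.511, Echs1 0.34, Acaa2 0.572, Ech1 0.426, Abcd2 1.19, Pex11a 0.388, Acaa1a 0.401 and Acaa1b 2.21.

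With CAP7, the carnitine genes were Cpt1a (-0.524), Cpt2 (0.371), Slc25a20 (0.59) and Crat (0.934). Those of the mitochondrial spiral were Acadm 0.67, Acads 0.365, Echs1 0.464, Hadh 0.607 and Acaa2 0.865, and those for unsaturated chains Eci1 0.709, Decr1 0.351, Eci2 0.271 and Ech1 0.51. Electron transfer and fuel choice gave Etfa 0.364, Etfb 0.346, Etfdh 0.53 and Pdk4 0.783. The peroxisomal ones were Abcd2 1.59, Pex11a 0.323, Ehhadh 1.65, Acaa1a 0.629, Acaa1b 2.36 and Scp2 0.489. Calls were lost without 1 library for Eci2 (any of 10 libraries, 0.235 to 0.271), Slc25a20 (4 libraries, vehicle replicates 1 and 3, CAP7 replicate 1, TNF and CAP7 replicate 3; 0.478 to 0.556), Etfa (CAP7 replicate 1, TNF and CAP7 replicate 2 or 3; 0.317 to 0.332), Etfb (TNF and CAP7 replicate 3; 0.276) and Ehhadh (vehicle replicate 3; 1.4).

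With ROSI, the values were Cpt1a -0.374, Cpt2 0.311, Crat 1.03, Acadm 0.61, Echs1 0.455, Hadhb 0.439, Hadh 0.319, Acaa2 0.9 and Ech1 0.46. Electron transfer and fuel choice gave Etfa 0.483, Etfb 0.322, Etfdh 0.363 and Pdk4 1.09. The peroxisomal ones were Abcd2 1.67, Pex11a 0.462, Ehhadh 2.37, Acaa1a 0.67, Acaa1b 3.07 and Scp2 0.46. Besides Cpt1a, calls were lost without 1 library for Etfb (any of 6 libraries, 0.274 to 0.299), Etfdh (any of 5, 0.28 to 0.339), Hadh (any of 5, 0.266 to 0.294) and Cpt2 (TNF replicate 2, 0.266).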

How the results depend on the processing

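Over the 19 comparisons, 416 member calls were made, and 352 held in every alternative run; none reversed. The number of calls lost was 1 of 416 with DESeq2, 1 with RLE scaling, 2 with limma-voom, 14 with only the groups compared, 20 with no filter on low counts and 25 with scaling by library totals alone. The filter at 5 CPM in 4 libraries lost 0 of 408, and leaving out 1 library lost 170 of 3736. The count of members called differed from the main one by over 1.5 times in 1 comparison, SCO against CAP7 without TNF, where it was 4, and 2 to 5 when 1 library was left out (2 without SCO replicate 4 or CAP7 replicate 2 or 4). The cause was not tested. Whether the replicate numbers pair the libraries is not settled by these values. Correlations of same-numbered deviations ran from -0.106 to 0.112 over the comparisons. In SCO against ROSI, 7 of 8 libraries without TNF and 6 of 8 with TNF correlated best with their own number. In ROSI against vehicle it was 0 of 8, without and with TNF. With a replicate block 22 members were called for SCO without TNF in place of 23, and 32 for CAP7 with TNF in place of 31. Low counts limit Cpt1b, Ehhadh, Acot1 and Acaa1b, whose lowest libraries held 0, 3, 4 and 7 counts. Whether depth or the 3' sequence that Cpt1b shares with Gm44502 lowers its count was not tested.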
